A study of Homo sapiens with 32 samples.

Results

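This account concerns 166 genes whose RNA was all but absent from TCam-2 cells and present in NTera2 cells. They were chosen on the values themselves: no more than 4 raw counts when the 16 TCam-2 libraries are summed, and a mean of at least 1 CPM, a count scaled by the total of its library, over the 16 NTera2 libraries. Rows without a gene symbol, rows named as pseudogenes and genes of chromosome Y were set aside, which left 26241 of the 61541 rows of the table, and 13710 of these reached 1 CPM in NTera2. Of those 13710, 169 met the limit on TCam-2 counts, a share of 1.23%. PTPRZ1, FEZF1 and HPAT5 were then left out by name, as were any genes whose names start with COL, LAM or ITG. The line difference of the 166 genes is therefore a description of how they were selected, and no test is given for it.

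The study grew TCam-2, a line derived from a seminoma, and NTera2, a line derived from an embryonal carcinoma, both human germ cell cancers, and sequenced their polyadenylated RNA. Within each line the cells received RANKL at 1 µg/ml, OPG at 1 µg/ml, denosumab, or the vehicle D-PBS for 48 h, which gives 8 groups. OPG, a decoy receptor, and denosumab, an antibody, block RANKL from reaching its receptor RANK. The protocol names RANKL a second time where denosumab would stand, so the identity of those libraries rests on their titles and treatment labels, and no dose is given under that name. Each group held 4 libraries from independent experiments per the labels, and the experiments numbered 1 to 4 used passages 118, 120, 121 and 122 of TCam-2 and passages 27, 29, 30 and 31 of NTera2. The lines were kept in different media, an RPMI medium for TCam-2 and DMEM for NTera2, both with fetal bovine serum, and each line is a single cell line.

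Seminoma cells keep many features of primordial germ cells, whereas embryonal carcinoma cells resemble the pluripotent cells of the early embryo and, in the case of NTera2, can be turned into neurons by retinoic acid. Genes that are switched on only in some lineages, such as receptors, ion channels, adhesion molecules and developmental regulators, are the usual candidates for expression in one such line and not in another. Promoters of such genes, developmental regulators apart, are often poor in the dinucleotide CpG. Those of genes used in every cell tend to lie in CpG islands.

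Total counts per library were between 10585247 and 20257935 in TCam-2 and between 11385500 and 30499538 in NTera2. The labelled cell types were borne out by their markers: a list of 6 seminoma genes (SOX17, TFAP2C, PRDM1, NANOS3, KIT and PDPN) summed to between 1821 and 2109 CPM in TCam-2 libraries and between 181 and 203 CPM in NTera2 libraries, and a list of 6 embryonal carcinoma genes (SOX2, DNMT3B, GDF3, TNFRSF8, LIN28A and SALL4) to between 602 and 733 CPM in TCam-2 and between 3790 and 4127 CPM in NTera2. A list of 10 neuronal genes summed to 56.8 to 74.5 CPM in TCam-2 and 164 to 189 CPM in NTera2, a list of 10 fibroblast genes to 246 to 322 CPM and 354 to 431 CPM in the same order, and a list of 7 immune genes to 1.78 to 3.99 CPM and 0.439 to 1.37 CPM. The fibroblast sums rest mostly on COL1A2 in TCam-2 and on THY1 in NTera2, so they do not measure a fibroblast share. COL1A2 averaged 251 CPM in TCam-2 and 0.670 CPM in NTera2, and THY1 18.1 and 312 CPM in the same order. FAP was at 0 in both lines, PTPRC had 1 count in TCam-2 and 0 in NTera2, and CD3E had 0 counts in TCam-2 and 6 in NTera2. In bulk RNA, fewer cells that express a gene cannot be told apart from less RNA in each cell. The RNA integrity number was low in TCam-2 RANKL replicates 2 and 4, at 6.1 and 3.7, and 8.3 or more in every other library with a value.

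All 166 genes together received 267 counts in TCam-2, against 339924 counts in NTera2. A TCam-2 library gave between 0 and 29 of these counts, with a median of 17.5, and an NTera2 library between 15412 and 41359. In TCam-2, 53 genes had no count at all, 33 had 1, 29 had 2, 28 had 3 and 23 had 4. In NTera2, 165 of the 166 genes had counts in every library, the exception being DPEP1, a membrane dipeptidase. The summed TCam-2 counts were 4 to 27 per library with RANKL, 0 to 23 with OPG, 17 to 29 with denosumab and 7 to 20 with vehicle. Scaled by library total, the sums were 0.256 to 1.37 CPM with RANKL, 0 to 1.70 CPM with OPG, 1.38 to 1.85 CPM with denosumab and 0.641 to 1.48 CPM with vehicle. Each treatment overlapped vehicle on both scales. On the CPM scale the highest RANKL library and the lowest denosumab library lay next to each other, at 1.37 and 1.38 CPM. The rule capped these counts at 4 a gene, so no treatment difference in TCam-2 can be read from them, and none was tested.

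In NTera2 the genes were mostly of low abundance. Their median level was 2.91 CPM, against 25.7 CPM over all 13710 expressed genes, and 0.780 against 4.57 CPM per kb of annotated gene length. There were 58 genes between 1 and 2 CPM, 51 between 2 and 5 CPM, 23 between 5 and 10 CPM, 26 between 10 and 30 CPM and 8 at or above 30 CPM. The share of expressed genes that was silent in TCam-2 was 5.76%, 3.40%, 1.55%, 0.753% and 0.128% in these 5 classes of rising level. Among the 16 NTera2 libraries the median coefficient of variation was 26.0% for the 166 genes and 11.3% for all expressed genes. CECR2 and HDHD5 had the smallest, 5.20% and 6.03%, and ACKR1 the largest, 63.8%.

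**Figure D1:**
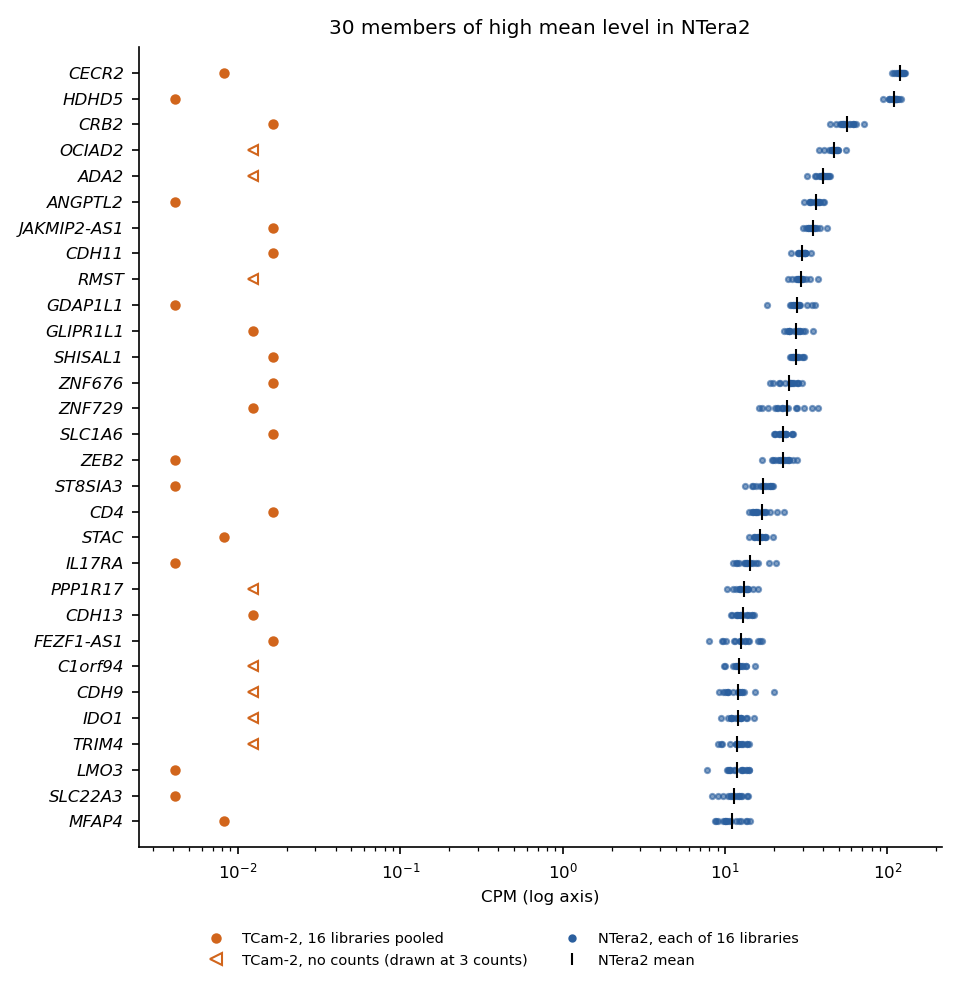
Levels of 30 of the genes of highest mean CPM in NTera2, on a log axis in CPM. Orange circles give the 16 TCam-2 libraries pooled, open triangles mark genes with no count in TCam-2, drawn at 3 counts over the 16 libraries (0.0123 CPM), blue points are single NTera2 libraries and the bar is their mean. For CECR2 the 16 NTera2 libraries lie between 107 and 129 CPM, and the blue points of no gene shown come near the orange ones.

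The largest group of neighbours lay on chromosome 22. From 17084954 to 17558151 (GRCh38, 473 kb), IL17RA, TMEM121B, HDHD5, ADA2 and CECR2 followed each other with no other gene of at least 1 CPM in either line between them. With a limit of 0.1 CPM the run splits into IL17RA with TMEM121B and the other 3 genes, LINC01664 lying between. The 5 genes had 4 counts over all TCam-2 libraries and 71973 in NTera2, where they summed to 292 CPM. They differ in function: a cytokine receptor subunit, a transmembrane protein, a hydrolase-like protein, a secreted enzyme and a chromatin reader.

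CECR2 (ENSG00000099954, plus strand, 17359949 to 17558151) encodes a bromodomain protein of ISWI chromatin remodelling complexes. It had 2 counts in all in TCam-2, 1 in OPG replicate 1 and 1 in OPG replicate 2, against 107, 122 and 129 CPM as the lowest, median and highest NTera2 library. The ratio of NTera2 to TCam-2, from pooled counts, was 14545 with an exact 95% counting interval from 4026 to 120109. That interval leaves out the spread between libraries and is no test, since the rule chose the gene on this contrast. HDHD5 (ENSG00000069998, minus strand, 17137511 to 17165287) is named after the haloacid dehalogenase-like hydrolases. It had 1 count in TCam-2, in OPG replicate 3, against a lowest, median and highest of 94.4, 111 and 120 CPM in NTera2. Per kb of gene length it led all 166 genes, with 22.2 CPM per kb, against 11.3 for CECR2. Both genes were thus seen in TCam-2 only as single reads in single libraries.

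ADA2 (ENSG00000093072, minus strand, 17178790 to 17258235), a secreted adenosine deaminase, had no count in any TCam-2 library. Its lowest, median and highest NTera2 libraries were at 32, 40.3 and 44.5 CPM, so the pooled TCam-2 level was at least 3250-fold lower than that of NTera2, taking 3 counts over the 16 libraries as the limit that a count of 0 allows. IL17RA (ENSG00000177663, plus strand, 17084954 to 17115693), the receptor subunit shared by the IL17 cytokines, had 1 count in TCam-2 against 11.2, 13.7 and 20.5 CPM in NTera2. TMEM121B (ENSG00000183307, minus strand, 17116297 to 17121367) had none in TCam-2 against 5.90, 7.92 and 9.84 CPM in NTera2. Per kb of gene length the other 3 genes averaged 4.57 CPM per kb for ADA2, 1.58 for IL17RA and 1.54 for TMEM121B in NTera2, so the run held levels of different size.

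The annotation lists 17 genes inside the run, and all 17 together had 27 counts in TCam-2. Of these, 16 fell on ENSG00000236325 and 5 on ENSG00000203416, which had 38 and 9 counts in NTera2. Both are annotated by GENCODE release 29 as processed pseudogenes inside the span of ADA2; whether their reads came from parent genes elsewhere was not tested. LINC01664 had 0 counts in TCam-2 and 45 in NTera2, and HDHD5-AS1, which overlaps HDHD5 on the other strand, 0 and 25. CECR3 had 0 counts in TCam-2 and 2 in NTera2.

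Before the run on chromosome 22, no gene with a symbol and not named as a pseudogene reached 1 CPM in either line. Other rows were not looked at there. XKR3, GAB4 and CCT8L2, which lie before the run, had 0 counts in both lines. On the other side of the run genes had reads in both lines. SLC25A18, a mitochondrial carrier, begins 5299 bases after CECR2 ends and had 5.55 ± 2.26 CPM in TCam-2 and 4.20 ± 0.858 CPM in NTera2 (SD, n = 16 each). The proton pump subunit gene ATP6V1E1, 33985 bases after CECR2, had 197 ± 8.43 CPM in TCam-2 and 97.2 ± 7.05 CPM in NTera2, and BCL2L13 had 82.1 ± 4.18 and 57.6 ± 3.78 CPM in the same order. Both were more abundant in TCam-2 across all 16 libraries a line. Of 8 genes after the run that were listed for this purpose, 7 could be tested in the vehicle libraries, 5 were higher in TCam-2, 1 was lower and 1 was not called by edgeR, in a comparison in which 76.2% of all genes tested were called. ATP6V1E1 had a log2 fold change of 1.20 (SE 0.0746, edgeR adjusted p = 2.69e-10) and the cell death gene BID one of -1.49 (SE 0.115, edgeR adjusted p = 4.43e-09), TCam-2 over NTera2. SLC25A18 was called with 0.80 (SE 0.329, edgeR adjusted p = 0.0372) but the call ended in 5 of the 8 fits that left out a library, with an adjusted p of 0.304 without TCam-2 vehicle replicate 4.

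**Figure D2:**
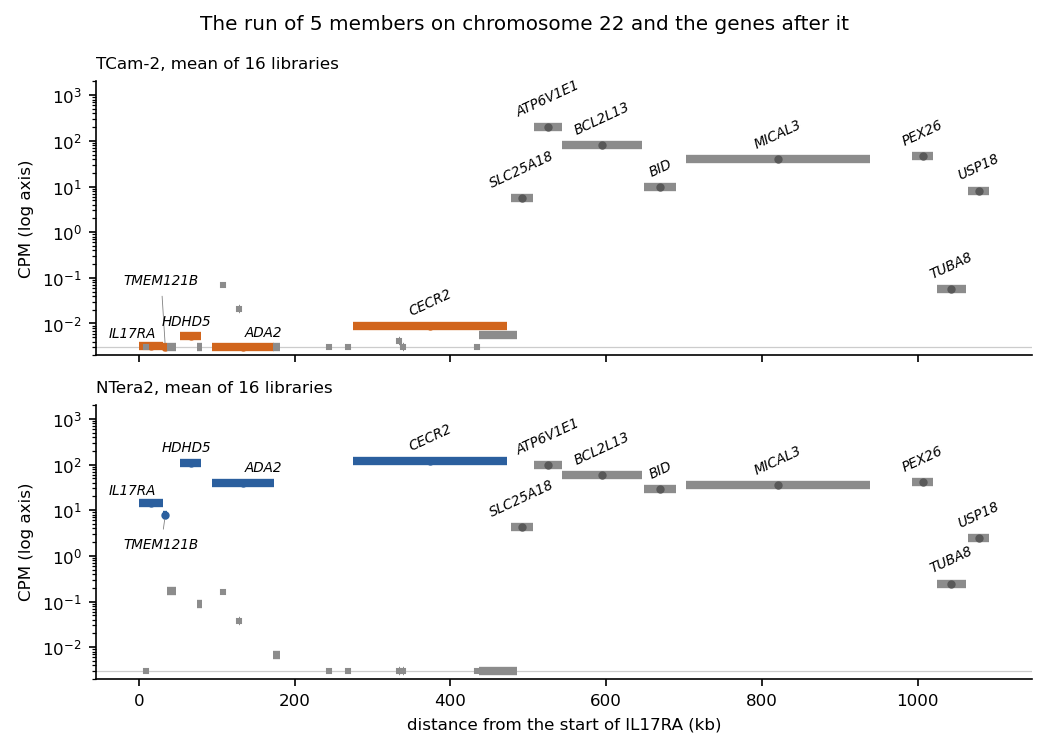
Mean CPM on a log axis against distance from the start of IL17RA in kb, TCam-2 above and NTera2 below, 16 libraries each. Coloured bars span the 5 silent genes, grey bars and squares the other annotated genes, and values under 0.003 CPM are drawn at the grey line. The 5 coloured genes lie near the bottom in TCam-2 and between 7.79 and 120.1 CPM in NTera2, while SLC25A18, the first gene after the run, averages 5.55 CPM in TCam-2 and 4.20 CPM in NTera2.

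RefSeq promoter windows, from 250 bases before to 50 bases after an annotated start (GRCh38.p14), could be matched in this run for HDHD5 and CECR2 only. They are given 5′ to 3′ on the gene's strand, with CpG dinucleotides in capitals. HDHD5 has a pair of windows. The one at the outermost start, chr22:17165238-17165537 on the minus strand, holds 4 CpG and has a CpG ratio, observed over expected, of 0.235. The one 6010 bases inward, chr22:17159228-17159527, holds 44 CpG with a ratio of 1.11. The single window of CECR2, chr22:17359699-17359998 on the plus strand, holds 2 CpG with a ratio of 0.128. Which start was used cannot be read from counts per gene.
HDHD5, outer start: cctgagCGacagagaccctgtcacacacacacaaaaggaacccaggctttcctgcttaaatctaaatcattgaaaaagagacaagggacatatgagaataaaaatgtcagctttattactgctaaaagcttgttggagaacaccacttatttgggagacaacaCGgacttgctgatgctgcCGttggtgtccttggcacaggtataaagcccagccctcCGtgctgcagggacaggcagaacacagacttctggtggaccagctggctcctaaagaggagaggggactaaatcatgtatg
HDHD5, inner start: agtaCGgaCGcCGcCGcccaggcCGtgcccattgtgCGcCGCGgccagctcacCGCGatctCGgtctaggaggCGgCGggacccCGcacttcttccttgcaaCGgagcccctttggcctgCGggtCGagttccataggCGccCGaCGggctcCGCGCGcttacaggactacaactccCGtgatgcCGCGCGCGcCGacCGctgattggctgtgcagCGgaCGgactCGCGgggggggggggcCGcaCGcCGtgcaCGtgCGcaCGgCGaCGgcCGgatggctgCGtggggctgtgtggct
CECR2: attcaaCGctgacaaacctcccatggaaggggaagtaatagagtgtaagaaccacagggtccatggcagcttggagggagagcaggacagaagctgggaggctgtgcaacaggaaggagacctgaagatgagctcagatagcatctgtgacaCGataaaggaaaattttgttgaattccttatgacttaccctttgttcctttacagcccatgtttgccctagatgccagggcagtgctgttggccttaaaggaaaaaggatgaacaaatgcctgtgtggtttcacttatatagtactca

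Partners of the genes in this run were described from lists of known relatives, tested in the vehicle libraries only, TCam-2 over NTera2, where 76.2% of all genes tested were called. IL17RA works in pairs with other IL17 receptors and signals through adaptors, and of 6 such genes 2 were higher in TCam-2, 2 lower and 2 not called. The adaptor TRAF3IP2 averaged 34.6 ± 2.21 CPM in TCam-2 and 8.27 ± 1.28 CPM in NTera2 (SD, n = 16 each; log2 fold change 2.34, SE 0.128, edgeR adjusted p = 4.75e-11). IL17RD averaged 29.1 ± 6.74 CPM in TCam-2 and 101 ± 10.7 CPM in NTera2 (log2 fold change -1.62, SE 0.164, edgeR adjusted p = 1.34e-07).

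Of 5 genes linked to ISWI remodelling complexes, 2 were higher in TCam-2, 1 was lower and 2 were not called, against the same 76.2% called over all genes. Not all 5 are partners of CECR2: BPTF, which was higher, and BAZ1A, which was lower, are known from other ISWI complexes. The ATPase SMARCA5 averaged 283 ± 30.7 CPM in TCam-2 and 255 ± 26.7 CPM in NTera2 (log2 fold change 0.30, SE 0.0900, edgeR adjusted p = 0.00708), a call lost without TCam-2 vehicle replicate 1 (adjusted p = 0.0584). The ATPase SMARCA1 averaged 79.3 ± 11.5 CPM in TCam-2 and 94.5 ± 8.53 CPM in NTera2 and was not called (log2 fold change -0.13, SE 0.10, edgeR adjusted p = 0.240), but was without TCam-2 vehicle replicate 1 (-0.28, adjusted p = 0.0113). Of 5 relatives of ADA2 in adenosine handling, 4 could be tested, none was higher, 2 were lower in TCam-2 and 2 were not called. ADA, the intracellular deaminase, averaged 8.01 ± 1.84 CPM in TCam-2 and 18.7 ± 1.59 CPM in NTera2 (log2 fold change -0.89, SE 0.141, edgeR adjusted p = 2.35e-05).

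There were 4 further runs, each a pair. On chromosome 1, from 98890245 to 99309584, PLPPR5 and PLPPR4, 2 phospholipid phosphatase-related membrane proteins known from neurons, had 0 counts in TCam-2 and 2014 in NTera2. PLPPR5 had 5.29, 6.27 and 8.05 CPM as its lowest, median and highest NTera2 library, and PLPPR4 had 0.878, 1.65 and 3.40 CPM. A short row between them without a symbol, ENSG00000227034, had 49 counts in TCam-2 and 86 in NTera2. Whether its reads came from this interval or from elsewhere in the genome was not tested. The pair is not a run where neighbours may be at most 200 kb apart. Their neighbours SNX7 (3.73 CPM in TCam-2, 16.5 CPM in NTera2) and FRRS1 (7.88 and 3.62 CPM in the same order) lie 129747 and 394386 bases away. Unlike the outer HDHD5 window and that of CECR2, the promoter windows of this pair are rich in CpG, with 39 in that of PLPPR5 (chr1:99004812-99005111, minus strand, ratio 0.851) and 21 in that of PLPPR4 (chr1:99264242-99264541, plus strand, ratio 0.712), printed here with CpG in capitals to show that contrast.
PLPPR5: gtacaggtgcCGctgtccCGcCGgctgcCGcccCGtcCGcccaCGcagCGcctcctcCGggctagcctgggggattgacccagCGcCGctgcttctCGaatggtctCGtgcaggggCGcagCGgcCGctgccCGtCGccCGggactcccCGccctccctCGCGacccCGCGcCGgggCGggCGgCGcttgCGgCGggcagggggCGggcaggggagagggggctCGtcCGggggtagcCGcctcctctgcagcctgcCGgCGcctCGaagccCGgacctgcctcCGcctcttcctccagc
PLPPR4: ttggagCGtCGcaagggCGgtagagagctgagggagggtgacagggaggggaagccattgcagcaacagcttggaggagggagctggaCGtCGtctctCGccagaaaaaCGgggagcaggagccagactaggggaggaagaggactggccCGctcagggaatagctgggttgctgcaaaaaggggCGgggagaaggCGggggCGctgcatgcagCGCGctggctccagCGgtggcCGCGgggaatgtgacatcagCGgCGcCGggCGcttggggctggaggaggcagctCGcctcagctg

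On chromosome 12, the long non-coding RNA RMST, which is known to act with SOX2 in neural differentiation, spans 97430884 to 97598415 on the plus strand and had no count in TCam-2, against 24.5, 28.8 and 37.2 CPM as the lowest, median and highest NTera2 library. The pooled level in TCam-2 was at least 2365-fold lower. MIR135A2, a microRNA hairpin of 100 bases, lies inside RMST on the same strand, at 97563812 to 97563911, and had 1 count in TCam-2 and 293 in NTera2. Reads of polyadenylated RNA in a hairpin cannot be told apart from those of the host transcript and do not measure the mature microRNA. The hairpin carries these mature sequences (RefSeq, GRCh38.p14, seed at bases 2 to 8 in capitals).
hsa-miR-135a-5p: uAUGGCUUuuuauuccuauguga
hsa-miR-135a-2-3p: aUGUAGGGauggaagccaugaa

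On chromosome 19, ZNF676 and ZNF729, zinc finger genes in a large cluster of such genes, had 7 counts in TCam-2 and 12401 in NTera2. ZNF676 had 18.9, 25.4 and 29.6 CPM as its lowest, median and highest NTera2 library, and ZNF729 had 16.3, 22.6 and 37.4 CPM. The 3 counts of ZNF729 in TCam-2 all came from RANKL replicate 2, one of the libraries of low RNA integrity. The zinc finger genes on either side had reads in both lines: ZNF257 averaged 15.2 CPM in TCam-2 and 28.9 CPM in NTera2, and ZNF98 2.45 and 7.81 CPM in the same order. Zinc finger genes resemble each other in sequence, so reads of 52 bases may be shared among them.

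On chromosome 5, HEIH (minus strand, 180826871 to 180830659) and LINC00847 (plus strand, 180830326 to 180839742), both long non-coding RNAs, had 0 counts in TCam-2 and 1842 in NTera2. HEIH had 2.16, 3.73 and 5.24 CPM as its lowest, median and highest NTera2 library, and LINC00847 had 0.83, 3.73 and 4.64 CPM. They overlap on opposite strands, and the strand setting of the counting is not given in the sources used here, so their reads are not surely separate. The genes on either side were expressed in both lines, MGAT1 at 139 CPM in TCam-2 and 44.5 CPM in NTera2, 11304 bases before, and ZFP62 at 16.5 and 12.4 CPM, 7869 bases after.

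Chromosome 22 had the largest share of silent genes of any chromosome. Of 309 expressed genes there 13 were silent in TCam-2, or 4.21%, of which 5 are the run, against 1.23% for the rule over all chromosomes. The lowest shares among chromosomes with a silent gene were 0.226% on chromosome 15, 0.398% on chromosome X and 0.419% on chromosome 8. No test was made of these shares.

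By function, 141 of the 166 genes (84.9%) were annotated as protein coding, against 95.5% of all expressed genes. The genes were also sorted by patterns in their deposited symbols and names, so a class holds only genes whose name shows it, and others of the same function stay outside: the non-coding RNAs RMST and D21S2088E, the secreted ANGPTL2, NOG and WIF1 and the regulators OLIG3 and INSM1 were in no class. Shares below are those of such name classes, formed alike over all expressed genes. Cadherins, the calcium-dependent adhesion molecules, had the highest share of silent genes among the name classes, 4 of 47 expressed (8.51%). CDH11, a cadherin of mesenchymal cells, had 4 counts in TCam-2 and 25.6, 30.3 and 34.0 CPM as its lowest, median and highest NTera2 library. CDH13, a cadherin anchored by a lipid tail, averaged 12.8 CPM, CDH9 12.1 CPM and CDH22 1.24 CPM in NTera2, with 3, 0 and 4 counts in TCam-2. Genes named as non-coding RNAs followed with 20 of 503 (3.98%), among them JAKMIP2-AS1, which had 4 counts in TCam-2 and 30.3, 34.4 and 42.7 CPM in NTera2.

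The name class of developmental regulators of transcription contributed 6 of 176 (3.41%), among them LMO3, HES3, NKX6-1, CRX and PAX6. Their levels in NTera2 lay between 1.53 CPM for PAX6, a regulator of eye and forebrain development, and 11.8 CPM for LMO3, a LIM-domain cofactor. Receptors contributed 16 of 586 (2.73%), among them IL17RA, the receptor tyrosine phosphatase PTPRO at 8.83 CPM, the sphingosine phosphate receptor S1PR5 at 7.07 CPM, the netrin receptor UNC5A at 6.73 CPM and the cytokine receptors IL21R, IL12RB2 and IL20RA at 3.33, 3.15 and 2.11 CPM. Several of these are best known from lymphocytes, whose marker PTPRC was at 0 in NTera2.

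Channels and transporters contributed 10 of 519 (1.93%), and genes named as ligands or matrix proteins 3 of 175 (1.71%), TGFA, IL1A and CXCL6. The glutamate transporter SLC1A6 averaged 22.9 CPM in NTera2 and the organic cation transporter SLC22A3 11.4 CPM. Enzymes contributed 27 of 3224 (0.837%) and zinc finger proteins 4 of 772 (0.518%): ZNF676, ZNF729, ZNF717 and ZEB2, a repressor of epithelial genes at 22.6 CPM. These last 2 classes lay under the 1.23% for all expressed genes.

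Among the 76 genes in no name class, CRB2, a component of the apical polarity complex of epithelia, had 4 counts in TCam-2 and 44.2, 54.5 and 71.3 CPM as its lowest, median and highest NTera2 library. OCIAD2 had no count in TCam-2 and 37.8, 46.6 and 55.4 CPM in NTera2, which puts TCam-2 at least 3783-fold lower. Its paralog OCIAD1 averaged 94.5 ± 9.20 CPM in TCam-2 and 105 ± 11.5 CPM in NTera2 (SD, n = 16 each) and was not called (log2 fold change 0.06, SE 0.0826, edgeR adjusted p = 0.505). ANGPTL2, a secreted angiopoietin-like protein, had 1 count in TCam-2 and 30.5, 36.5 and 40.7 CPM in NTera2. GDAP1L1 had 1 count in TCam-2 and 18.2, 27.6 and 35.8 CPM in NTera2, and GLIPR1L1, a protein known from testis and sperm, 3 counts and 23.1, 27.7 and 34.7 CPM.

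Some entries are uncertain because reads may be shared with near-identical copies. MATR3 has 2 rows in the table, of which one had 1620 counts in TCam-2 and the row counted here 3, so the gene itself was not silent in TCam-2. SPATA31C2 is annotated as an unprocessed pseudogene, and STRC, ZNF717 and TRBC2 have close relatives in the genome. Just inside the level limit stood LINC02751 and SEC14L2, both at 1.02 CPM, and just outside it NDNF at 0.998 and SSTR3 at 0.995 CPM. At the limit on counts, CRB2 and JAKMIP2-AS1 had 4 counts in TCam-2, while VAT1L (170.5 CPM in NTera2) and THBS2 (41.6 CPM) had 5 and were outside. In all, 27 genes had exactly 5 counts. Lists of relatives of THBS2, a secreted matrix glycoprotein, and of TMCO1, a membrane protein with 10 counts in TCam-2 and 70.2 CPM in NTera2, were also tested in the vehicle libraries, TCam-2 over NTera2. Of 6 THBS2 relatives 4 could be tested, of which 1 was higher and 3 were lower in TCam-2, and of 9 TMCO1 partners 8 could be tested, of which 5 were higher, 1 was lower and 2 were not called by edgeR, against 76.2% called over all genes.

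Promoter windows could be matched for 118 of the 166 genes and for 11004 of the 13710 expressed genes. The rule did not use sequence. The median CpG ratio was 0.536 in the 118 and 0.841 in all expressed genes, and 50 of the 118 (42.4%) had a ratio of at least 0.6, against 83.4% of all. The median share of G and C was 61.3% and 65.7%. Low abundance moved with a low ratio among all expressed genes, but within each of 5 classes of NTera2 level the silent genes also had the smaller share: 46.7% against 62.8% at 1 to 2 CPM, 45.9% against 70.5% at 2 to 5 CPM, 42.1% against 79.3% at 5 to 10 CPM, 33.3% against 84.0% at 10 to 30 CPM, and 0 of 5 against 89.5% at 30 CPM and over. The window used was the one whose start lies nearest the 5′ end of the deposited gene. With the richest window of each gene in its place, the shares over all levels were 53.4% and 88.6%. The shares by level were not redone this way. The 0 of 5 takes HDHD5 by its outer window, with a ratio of 0.235, whereas its inner window has 1.11.

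**Figure D3:**
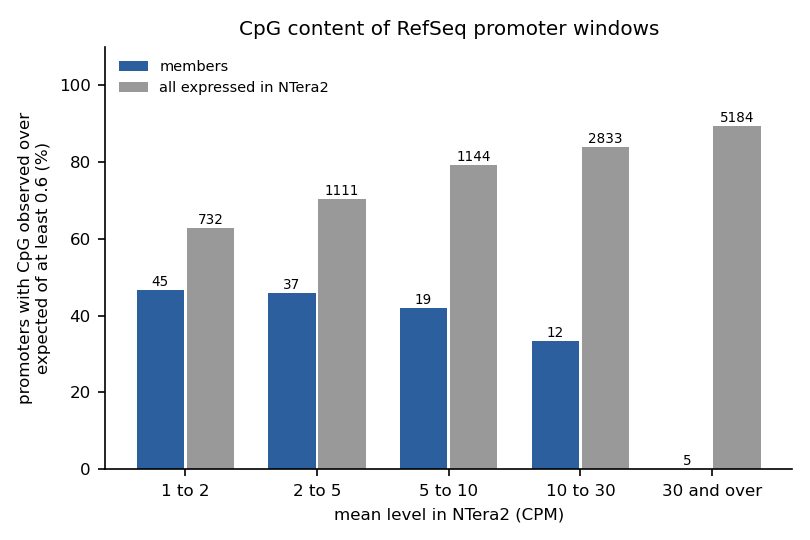
Share of genes whose RefSeq promoter window has a CpG observed over expected of at least 0.6, in percent, by mean level in NTera2 in CPM, for the genes silent in TCam-2 (blue) and all genes expressed in NTera2 (grey), with the number of genes over each bar. The blue bar is the lower of each pair, and the 5 genes at 30 CPM and over have none. The window whose start lies nearest the 5′ end of the deposited gene was used, so HDHD5, among these 5, is taken without its inner window.

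Short motifs were searched for in both strands of the same windows. TATAAA occurred in 13 of 118 (11%), against 5.33% of all expressed genes, and CAGCTG, an E-box, in 30 (25.4%), against 16.5%. The octamer ATGCAAAT occurred in 2 (1.69%), against 1.34%, and CATTGTT, a core bound by SOX proteins, in 2 (1.69%), against 1.63%. CAGCTG reads the same on both strands. No test was made of these shares.

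The question of whether RANKL, OPG or denosumab moved these genes could be asked in NTera2 only, since TCam-2 held too few counts. All 166 genes passed the filter on low counts, among 17351 genes tested. None was called with RANKL, OPG or denosumab against vehicle by edgeR at an adjusted p under 0.05, and 0% of all genes tested were called in any of the 3 comparisons, which share the same 4 vehicle libraries. At an unadjusted p under 0.05, edgeR passed 10 of the 166 with RANKL, 2 with OPG and 5 with denosumab, against a background of 10.3%, 1.68% and 7.25% of all genes. DESeq2 called 0 of the 166 with RANKL and with OPG and 0 of all genes in both. With denosumab it called 16 of all genes, and gave an adjusted p to only 17 of the 166, of which 0 were called. With the replicate block, edgeR called 0, 0 and 30 of all genes and 0 of the 166 in each comparison. The smallest edgeR adjusted p among the 166 was then 0.142 with RANKL and 0.106 with denosumab, against 0.418 and 0.420 without the block. With OPG it was 0.9999 against 0.9998. At an unadjusted p under 0.05 the block passed 14, 3 and 6 of the 166 and 2834, 757 and 2038 of all genes. Values for single genes under treatment are from the fit without the block. The median log2 fold change of the 166 was 0.02 with RANKL, -0.01 with OPG and -0.03 with denosumab, beside 0.01, 0.00 and 0.01 over all genes, and 89, 76 and 74 of the 166 were positive. Their median standard errors, 0.265, 0.264 and 0.272, were larger than the 0.132, 0.133 and 0.135 over all genes.

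**Figure D4:**
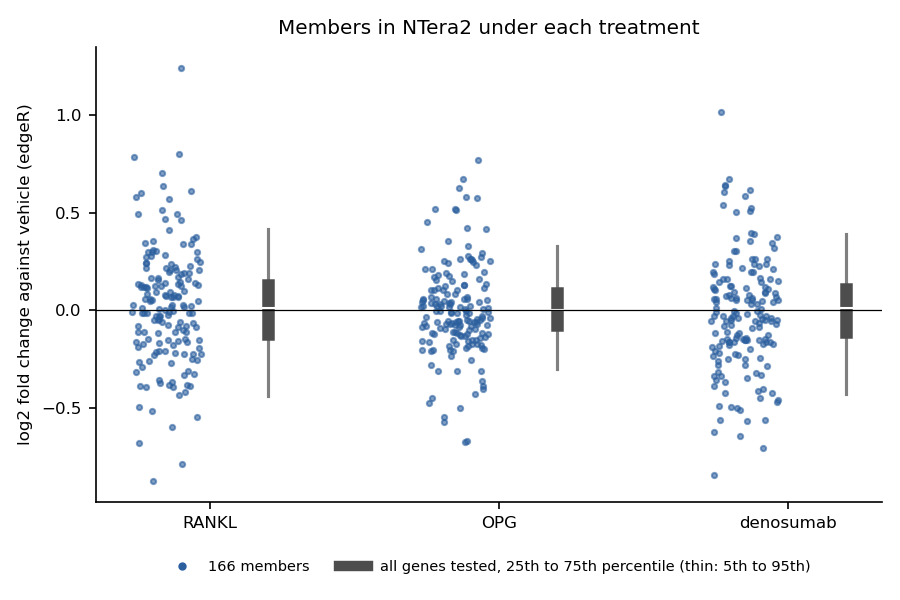
Log2 fold change against vehicle in NTera2 (edgeR) with RANKL, OPG and denosumab, 4 libraries a group. Each point is 1 of the 166 genes, and the bar beside them spans the 25th to 75th percentile of all 17351 genes tested, with the 5th to 95th as a thin line. The points centre on 0 in all 3 comparisons, and the highest point with RANKL is ACKR1 at 1.24.

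The genes of smallest p in each comparison are named although none passed. They were picked on these same values, so groups that do not overlap, or agreement across replicate numbers, are no further evidence. The share of all genes that separate in this way is not given. RAMP3, an accessory protein of calcitonin-family receptors, had 2.23, 3.06, 2.39 and 3.15 CPM in the RANKL libraries of replicates 1 to 4 and 1.05, 1.99, 1.43 and 2.10 CPM in the vehicle libraries (log2 fold change 0.70, SE 0.275, edgeR adjusted p = 0.418). All RANKL values lay above all vehicle values. ACKR1, a scavenging chemokine receptor, had 2.56, 0.713, 1.79 and 2.78 CPM with RANKL and 0.643, 0.597, 1.52 and 0.679 CPM with vehicle (log2 fold change 1.24, SE 0.495, edgeR adjusted p = 0.426). APOB, the protein of low-density lipoprotein, had 3.64, 4.78, 4.58 and 4.32 CPM with RANKL and 3.16, 3.19, 3.04 and 2.84 CPM with vehicle (log2 fold change 0.49, SE 0.199, edgeR adjusted p = 0.428). The groups overlapped for ACKR1 and did not for APOB, and within each of the 4 replicate numbers RANKL was the higher for all 3 genes.

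With OPG, JPH2, a junctional protein of muscle, had 1.06, 1.79, 1.52 and 1.18 CPM, against 1.52, 1.59, 3.29 and 2.53 CPM with vehicle (log2 fold change -0.67, SE 0.302, edgeR adjusted p = 1.00). CYP4F22, a cytochrome P450 of fatty acid hydroxylation, had 2.00, 1.79, 2.97 and 1.80 CPM with OPG and 1.40, 0.797, 1.35 and 1.73 CPM with vehicle (log2 fold change 0.67, SE 0.323, edgeR adjusted p = 1.00). The antisense RNA PCOLCE-AS1 had 5.68, 6.59, 5.78 and 5.21 CPM with OPG and 6.72, 8.76, 5.91 and 8.33 CPM with vehicle (log2 fold change -0.36, SE 0.180, edgeR adjusted p = 1.00). The groups overlapped for JPH2 and PCOLCE-AS1 and not for CYP4F22. Within replicate numbers OPG was lower in 4 of 4 for PCOLCE-AS1, lower in 3 of 4 for JPH2 and higher in 4 of 4 for CYP4F22.

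With denosumab, GDAP1L1 had 18.2, 26.7, 25 and 27.8 CPM, against 28.8, 35.8, 26.3 and 34.1 CPM with vehicle (log2 fold change -0.35, SE 0.115, edgeR adjusted p = 0.420). HES3, a transcriptional repressor of neural progenitors, had 2.07, 6.76, 4.54 and 3.31 CPM with denosumab and 6.02, 6.37, 6.58 and 6.91 CPM with vehicle (log2 fold change -0.64, SE 0.228, edgeR adjusted p = 0.476). UNC5A had 4.98, 6.32, 6.10 and 6.20 CPM with denosumab and 8.82, 8.70, 6.08 and 7.90 CPM with vehicle (log2 fold change -0.42, SE 0.167, edgeR adjusted p = 0.558). All 3 had at least 1 denosumab library within the vehicle range. Within replicate numbers denosumab was lower in 4 of 4 for GDAP1L1 and in 3 of 4 for HES3 and UNC5A.

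None of the 5 genes of the chromosome 22 run was called under treatment. CECR2 averaged 119 ± 7.56 CPM with RANKL, 122 ± 4.68 with OPG, 119 ± 4.06 with denosumab and 120 ± 9.65 with vehicle (SD, n = 4 each), and its log2 fold changes were -0.01 (SE 0.0643), 0.02 (SE 0.0644) and -0.01 (SE 0.0647). HDHD5 averaged 103 ± 7.15 CPM with RANKL, 110 ± 6.91 with OPG, 112 ± 2.54 with denosumab and 114 ± 4.35 with vehicle, and its log2 fold change with RANKL was -0.15 (SE 0.0632, edgeR adjusted p = 0.435). ADA2 averaged 42.9 ± 1.48 CPM with RANKL, 39.5 ± 2.45 with OPG, 38.1 ± 4.68 with denosumab and 38.8 ± 2.28 with vehicle, and its log2 fold change with RANKL was 0.14 (SE 0.0854, edgeR adjusted p = 0.544). Summed over all 166 genes, the NTera2 level was 1370 ± 40.8 CPM with RANKL, 1382 ± 8.59 with OPG, 1354 ± 29.5 with denosumab and 1374 ± 18.9 with vehicle.

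Among the NTera2 passages a few genes did differ. Each passage is 1 experiment, with its 4 libraries under the 4 treatments, so passage and experiment cannot be told apart and p-values measure the spread among those libraries. With treatment in the fit, edgeR called 5 of the 166 genes (3.01%) for any difference among passages 27, 29, 30 and 31, against 8.28% of all genes tested, and 1 of the 166 for passage 31 against passage 27, against 0.622% of all. At an unadjusted p under 0.05 edgeR passed 20 of the 166 for any difference, against 24.2% of all genes, and 29 for passage 31 against 27, against 14% of all. The summed level of the 166 genes was 1357 ± 25.6, 1368 ± 18.4, 1354 ± 18.1 and 1401 ± 19.8 CPM at passages 27, 29, 30 and 31 (SD, n = 4 each). Over the same passages the embryonal carcinoma list summed to 4044 to 4120, 4069 to 4127, 3909 to 4056 and 3790 to 3845 CPM, and the fibroblast list to 387 to 417, 398 to 431, 386 to 417 and 354 to 388 CPM. In NTera2 the fibroblast list rests mostly on THY1. The part of either list in the differences was not tested.

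D21S2088E, a long intergenic RNA of chromosome 21 with no count in TCam-2, had 9.36, 10.1, 6.27 and 7.22 CPM at passage 31 in the RANKL, OPG, denosumab and vehicle libraries, and 14.2, 16.5, 12.4 and 13.0 CPM at passage 27. The 2 passages did not overlap, in a gene named for its call in this same contrast. The means of all 4 passages were 14.0 ± 1.79, 9.41 ± 1.09, 8.85 ± 1.73 and 8.24 ± 1.80 CPM. Passage 31 was lower than passage 27 by a log2 fold change of -0.77 (SE 0.146, edgeR adjusted p = 0.00578), and the test over all passages gave an edgeR adjusted p of 0.00305. The call against passage 27 was lost without denosumab replicate 4 (-0.67, adjusted p = 0.0564) or OPG replicate 1 (-0.69, adjusted p = 0.0787), and that over all passages without OPG replicate 1 (adjusted p = 0.0515). LOC105369306, another RNA of chromosome 21, averaged 4.68 ± 0.955, 3.63 ± 0.438, 2.7 ± 0.324 and 2.84 ± 0.314 CPM over the passages (edgeR adjusted p = 0.0452). The call ended in 14 of the 16 fits that left out a library, with adjusted p up to 0.145.

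BTBD17, a BTB-domain protein, averaged 8.11 ± 2.24, 9.13 ± 1.97, 12.3 ± 2.66 and 12.5 ± 2.68 CPM (edgeR adjusted p = 0.0150), and the call ended without OPG replicate 1 (adjusted p = 0.0728). CRB2 averaged 49.1 ± 3.91, 56.6 ± 4.34, 58.1 ± 5.62 and 60.7 ± 7.80 CPM (edgeR adjusted p = 0.0421), and the call ended in 10 of the 16 fits that left out a library, with adjusted p up to 0.145.

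**Figure D5:**
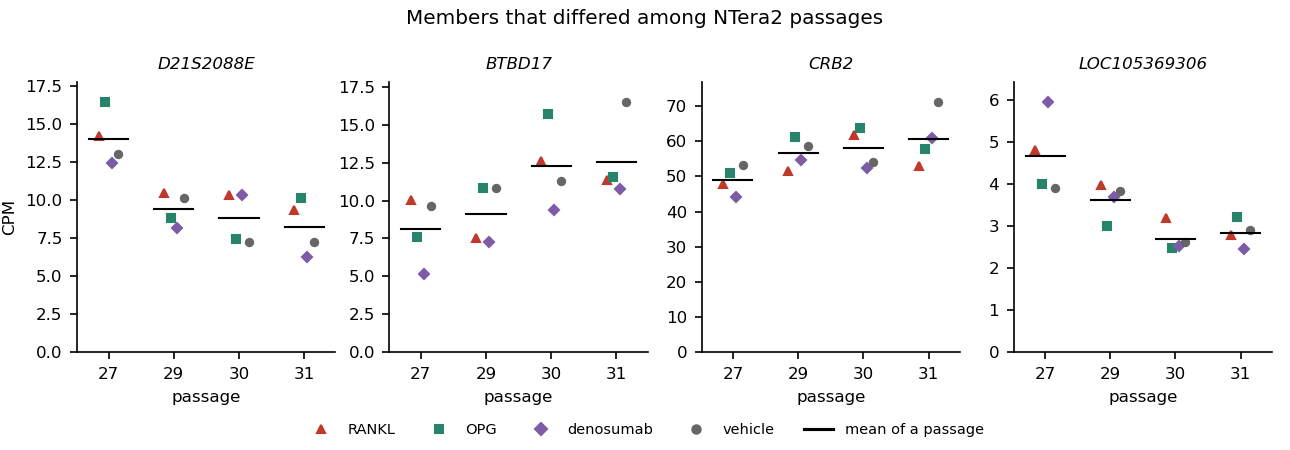
CPM of 4 genes that differed among NTera2 passages, by passage, with a marker for each treatment and a bar at the mean of the 4 libraries of a passage. D21S2088E lies between 6.27 and 10.1 CPM at passage 31 and between 12.4 and 16.5 CPM at passage 27.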

How the data were processed

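Polyadenylated RNA was sequenced from 32 libraries, 4 in each of 8 groups, with TruSeq Stranded mRNA kits and 52-base paired reads, per the labels' protocols. The authors deposited raw counts per gene, made with bcl2fastq 2.20.0, STAR 2.7.9a and featureCounts 1.6.2 on GRCh38/hg38, per the submitters' processing notes. The annotation release and the strand setting are not given in the sources used here. No column of another series was left over (0 columns).

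Members and lists were chosen with earlier results of these data known. CPM is the deposited count divided by the column total. Intervals and the limit of 3 counts cover counting error only. Counts were tested with edgeR 4.0.16 (limma 3.58.1, R 4.3.3), quasi-likelihood, TMM scaling and a filter on low counts, with Benjamini-Hochberg adjustment at 0.05, after a check on simulated data. Treatments were compared in NTera2 without a replicate block, passages with treatment as a covariate, and the lines over vehicle libraries for other genes only. DESeq2 1.42.0, other scaling, no filter, other limits and leaving out each library were alternatives. Within a line, each replicate number is 1 passage per the labels, so the numbers pair the libraries. Residuals of libraries with the same number had a median correlation of 0.276 in NTera2 (range -0.206 to 0.679) and 0.228 in TCam-2, against -0.126 and -0.0692 for other pairs. Genes named are all run members, the 12 of highest mean CPM and, per comparison, up to 10 called or else the 3 of smallest p. A run is at least 2 members with no more than 500 kb between neighbours and no other expressed gene between them. Promoter windows and microRNAs came from RefSeq (GRCh38.p14), and gene types from GENCODE release 29, which held 164 of the 166. Some genes that this rule names are not reported here.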

Additional observations from a re-analysis of the deposited data

Results flagged for a closer look

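In 7 of 136 groups of 4 NTera2 libraries of named genes, 1 library stood apart from the other 3; chance alone gives about 1 in 20 such groups. ZNF676 was lowest in vehicle replicate 2, at 18.9 CPM, with the others between 25.2 and 26.1 CPM. LINC00847 was lowest in vehicle replicate 3, at 2.03 CPM, with the others between 3.72 and 4.01 CPM. GLIPR1L1 was highest in vehicle replicate 4, at 28.9 CPM, with the others between 24.1 and 24.8 CPM. ACKR1 was highest in vehicle replicate 3, at 1.52 CPM, with the others between 0.597 and 0.679 CPM. APOB was highest in denosumab replicate 4, at 4.16 CPM, with the others between 2.57 and 2.72 CPM. HES3 was highest in OPG replicate 2, at 7.01 CPM, with the others between 5.62 and 5.78 CPM. UNC5A was lowest in denosumab replicate 1, at 4.98 CPM, with the others between 6.10 and 6.32 CPM.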

How the results depend on the processing

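The number of silent genes followed its limits: 53 with no TCam-2 count allowed, 274 with at most 10 and 357 with at most 16, and 253 and 108 with NTera2 limits of 0.5 and 2 CPM. Leaving out each library, an alternative chosen after seeing the data, gave 166 to 182. The run on chromosome 22 kept its 5 genes with a limit of 0.5 CPM on genes between and with gaps of 200 kb or 1 Mb, but split into 2 and 3 at 0.1 CPM, and the PLPPR pair was lost at 200 kb. The share of promoters rich in CpG was 22.9% at a ratio of 0.75 and 53.4% with the richest window of each gene, that window chosen after seeing the data. With no filter on low counts edgeR called 176 genes with RANKL, 237 with denosumab (1 of the 166), 281 for passage 31 against 27 (4 of the 166) and 8 of the 166 for any passage difference. With the replicate block, denosumab gave 30 genes and 0 of the 166, and the pairing changed no call of a silent gene. DESeq2 called 16 genes with denosumab (17 of the 166 had an adjusted p) and 678 for passage 31 against 27 (3 of the 166). Without the treatment covariate the passage counts were 63 and 778 genes (3 of the 166 for any difference). Leaving out 1 library gave 0 genes with RANKL and OPG and 0 to 29 with denosumab, 29 without vehicle replicate 3. It gave 48 to 142 genes and 0 to 3 of the 166 for passage 31 against 27, 538 to 2409 genes and 1 to 7 of the 166 for any passage difference, and 12425 to 13021 genes between the lines. No called result changed direction under these alternatives. Depth limits genes near 1 CPM most.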
